A study of Mus musculus with 28 samples.

Results

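Rods sorted from mouse retinas at postnatal day 10 (P10) were compared with rods sorted at postnatal day 6 (P6), with 4 arrays at each age and 8 of the series' 28 arrays in all. The 8 arrays were taken by the age in their labels, and no measured value was used to choose them. Both groups came from C57Bl/6 mice of the genotype Nrlp-GFP, which make green fluorescent protein under the Nrl promoter, active in rods, and the labels also call the retina wild-type. No treatment is given for either group. Cells were freed with papain and collected by fluorescence-activated sorting, so a group is the set of cells that the sort collected. A sample was used only when a second sort had found it pure, and RNA of other cells was followed here only through marker genes. The other ages used here are P12 and P4 (4 arrays each), P28 (5 arrays), P2 (3 arrays) and P21 (4 arrays), of the same strain and genotype. P21 entered the model, which took 1 mean per age, and the plot of levels by age. Levels are log2 values from Affymetrix Mouse Exon 1.0 ST arrays, and 14860 genes were tested. No label ties the replicates of an age to different animals, so the p-values speak of the spread of these samples, which may be technical.

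Rods are the photoreceptors of dim light. The transcription factor NRL, acting with CRX, commits a newborn cell to the rod fate, and the young rod then builds an outer segment filled with the phototransduction machinery and a ribbon synapse onto bipolar cells. In that machinery light leads to the activation of transducin, transducin switches on a cyclic GMP phosphodiesterase, and the fall in cyclic GMP closes cation channels in the outer segment membrane. In the mouse both structures are built after birth. While this goes on, the last retinal progenitors leave the cell cycle and Muller glia differentiate around the rods.

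At P10, 131 genes were higher and 434 lower than at P6. A gene was called changed when its Benjamini-Hochberg adjusted p was under 0.05 by limma over all genes and its change was at least 2-fold. The rises were 0.882% and the falls 2.92% of the genes tested, and these are the shares against which every list count below is to be read. The 4 arrays of P10 did not overlap the 4 arrays of P6 in 128 of the 131 risen genes and in 396 of the 434 fallen genes. Over all 14860 genes they did not overlap in 2967. Genes called by p and fold tend to separate because of how they were picked, so these counts are a description. The median change over all genes was -0.08 on the log2 scale. Normalizing the arrays by quantiles once more moved that median to 0.03 and the counts to 191 rises and 324 falls, and cyclic loess gave 0.01, 174 rises and 362 falls.

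The P6 arrays differed more among themselves than the P10 arrays did. Each array's correlation with the mean of its own age's remaining arrays was 0.990 to 0.992 at P10, and at P6 it was 0.971 for replicate 1, 0.980 for replicate 2, 0.985 for replicate 3 and 0.986 for replicate 4. P6 replicate 1 held the highest P6 value in 299 of the 434 fallen genes and replicate 3 in 88, whereas replicate 1 was the highest in 5287 of all 14860 genes. Among the 131 risen genes replicate 1 was the highest P6 array in 35 and the lowest in 33. Without P6 replicate 1 the counts were 130 rises and 312 falls, with 119 of the 131 rises and 303 of the 434 falls kept. A named fall whose call was lost without that array is therefore marked below. The folds printed rest on all 4 P6 arrays. Arrays had medians of 6.84 to 6.91 at P10 and 6.97 to 7.07 at P6. Precision is limited by having 4 arrays of each age. The SEs rest on 1 spread per gene over all 7 ages, so they do not follow the spread of P6 or P10 alone. In the 434 fallen genes the median SD was 0.49 at P6 and 0.22 at P10. Mki67 had SDs of 1.05 at P6 and 0.29 at P10 beside an SE of 0.32, and Neurod4 0.12 and 0.04 beside 0.37.

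The sorting gene Nrl stood at 10.00, 9.92, 9.95 and 9.94 in the 4 P10 arrays, against 9.65, 9.98, 9.79 and 9.88 at P6. The groups overlapped, and the difference of 0.13 ± 0.08 (SE) was not called (adjusted p = 0.277, limma). Phosducin (Pdc), which binds transducin's beta and gamma subunits, was high in all 8 arrays, at 12.90 to 13.00 at P10 and 12.71 to 12.74 at P6. The rod nuclear receptor gene Nr2e3 was not analysed here. The other sources of RNA that a sort could carry were followed with 12 lists of marker genes, whose values stand beside the falls.

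Sequence upstream of the risen rod genes is shown first, because TAATCC, the core that CRX and OTX2 recognise, and TGCTGA, part of the element that NRL and other Maf proteins recognise, are the motifs most often discussed for such genes. The windows run from 250 bases before to 50 bases after the start of the gene, 5′ to 3′ on the gene's strand, from RefSeq on build GRCm38.p6, and capitals mark TAATCC or TGCTGA on either strand. They are the promoters of Slc24a1 (chr9:64951571-64951870, minus strand), Gucy2f (chrX:142196887-142197186, minus strand), Rdh12 (chr12:79208663-79208962, plus strand), Abca4 (chr3:122044210-122044509, plus strand) and Grk1 (chr8:13404831-13405130, plus strand). They were taken in order of the size of the rise among risen genes of the phototransduction, outer segment, synapse and retinoid lists that have an entry.
Slc24a1: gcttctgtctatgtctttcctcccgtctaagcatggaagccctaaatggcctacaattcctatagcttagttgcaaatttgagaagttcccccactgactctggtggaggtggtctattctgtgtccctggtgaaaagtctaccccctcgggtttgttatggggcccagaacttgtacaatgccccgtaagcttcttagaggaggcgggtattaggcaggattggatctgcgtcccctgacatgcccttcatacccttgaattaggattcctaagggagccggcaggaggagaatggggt
Gucy2f: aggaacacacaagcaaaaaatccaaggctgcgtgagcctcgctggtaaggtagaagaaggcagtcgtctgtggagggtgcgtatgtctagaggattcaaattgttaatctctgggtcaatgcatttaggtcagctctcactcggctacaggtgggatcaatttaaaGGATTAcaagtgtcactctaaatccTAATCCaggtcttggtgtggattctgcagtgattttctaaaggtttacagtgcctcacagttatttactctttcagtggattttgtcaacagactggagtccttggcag
Rdh12: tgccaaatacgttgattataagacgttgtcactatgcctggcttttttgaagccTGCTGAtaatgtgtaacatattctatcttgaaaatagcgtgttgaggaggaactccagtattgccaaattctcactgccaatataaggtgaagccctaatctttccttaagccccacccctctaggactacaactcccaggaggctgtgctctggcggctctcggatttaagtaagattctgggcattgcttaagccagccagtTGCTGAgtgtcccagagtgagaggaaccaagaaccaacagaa
Abca4: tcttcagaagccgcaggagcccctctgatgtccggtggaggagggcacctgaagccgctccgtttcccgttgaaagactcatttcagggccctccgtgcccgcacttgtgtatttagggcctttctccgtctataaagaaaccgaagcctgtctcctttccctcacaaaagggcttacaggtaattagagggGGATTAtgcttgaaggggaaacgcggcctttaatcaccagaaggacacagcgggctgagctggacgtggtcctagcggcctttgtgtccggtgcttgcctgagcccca
Grk1: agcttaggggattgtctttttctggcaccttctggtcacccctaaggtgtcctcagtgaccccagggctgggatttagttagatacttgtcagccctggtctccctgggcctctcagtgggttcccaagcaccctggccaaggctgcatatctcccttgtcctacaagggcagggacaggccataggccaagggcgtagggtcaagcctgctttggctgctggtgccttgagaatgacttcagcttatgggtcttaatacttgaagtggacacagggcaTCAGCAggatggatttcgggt
The Gucy2f window holds TAATCC on both strands and the Abca4 window on the reverse strand only, the Rdh12 window holds TGCTGA in 2 places, and the Grk1 window holds it once on the reverse strand. Neither word is in the Slc24a1 window. Over one window a gene, TAATCC was in 10.3% of the 97 risen genes with an entry, in 6.94% of the 346 fallen genes and in 5.98% of all 11894 genes tested that have one. TGCTGA was in 20.6%, 17.9% and 16.5% of the same groups. Of 4 other words searched on both strands, AAGGTCA (the half-site of oestrogen-related receptors such as ESRRB) was in 5.15% of risen, 2.02% of fallen and 3.43% of tested genes. TTTGAA (the cell cycle homology element) was in 15.5%, 12.4% and 14.6%, GCGGGAA (an E2F site) in 7.22%, 6.07% and 6.77%, and ATTGG (the CCAAT box) in 40.2%, 42.5% and 38.5%. None of the 6 words contains another, and a match is a description of the letters in the window.

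Of 22 phototransduction genes measured, 8 rose and 0 fell, or 36.4% of the list against 0.882% of all genes, and the median change of the list was 0.81 against -0.08 for all genes. The 8 were Gnat1, Slc24a1, Pde6a, Gucy2f, Guca1b, Rcvrn, Grk1 and Gnb5. The list was chosen with earlier results of these data known, so its count is a description. The same 8 calls were counted without P6 replicate 1, and 10 of the 22 rose under either rescaling.

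Gnat1 encodes the alpha subunit of rod transducin, the G protein of the rod light response. Its level was 12.85, 12.69, 12.82 and 12.94 in the P10 arrays, against 8.97, 9.30, 8.65 and 9.13 in the P6 arrays. Every P10 array lay far above every P6 array, and the rise was 14.0-fold (log2 3.81 ± 0.18, SE; adjusted p = 8.35e-14, limma). This was 61.7% of the log2 difference between P28 and P2. The beta and gamma subunits moved less: Gnb1 differed by 0.42 ± 0.06 (SE) and Gngt1 by 0.71 ± 0.11, and neither reached 2-fold.

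Of the phosphodiesterase that transducin activates, one catalytic subunit was called and the other subunits were not. Pde6a stood at 11.03, 10.84, 10.90 and 11.05 at P10, against 7.61, 8.37, 7.63 and 8.67 at P6, a rise of 7.38-fold (2.88 ± 0.17, SE; adjusted p = 4.84e-12, limma). The P6 arrays spread over more than a log2 unit and still did not reach the P10 arrays. Its partner Pde6b was at 12.35 ± 0.07 (SD, n = 4) at P10 and 11.68 ± 0.12 at P6, a difference of 0.68 ± 0.09 (SE). The inhibitory subunit Pde6g differed by 0.99 ± 0.17 (SE), just under the threshold, and passed it under both rescalings (1.13 and 1.10). Pde6d, which carries prenylated proteins to the outer segment, differed by -0.38 ± 0.13.

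Of the genes given here that handle cyclic GMP and calcium in the rod, some were called higher and others were not called. Slc24a1, the sodium, calcium and potassium exchanger of the rod outer segment, read 10.30, 10.14, 10.36 and 10.59 at P10, against 6.93, 7.63, 6.80 and 7.30 at P6. All 4 P10 arrays were above all P6 arrays, and the gene rose 9.07-fold (3.18 ± 0.14, SE; adjusted p = 4.55e-14, limma). Gucy2f, a guanylate cyclase of the outer segment, read 9.97, 9.94, 10.02 and 10.20 at P10, against 7.73, 7.65, 6.20 and 7.54 at P6, with replicate 3 lowest, and rose 6.74-fold. Its relative Gucy2e differed by 0.95 ± 0.15 (SE), and it was called under both rescalings (1.08 and 1.05). Guca1b, the calcium sensor GCAP2 that controls the cyclases, read 9.75, 8.90, 9.83 and 9.54 at P10, against 7.57, 7.25, 6.76 and 7.30 at P6, a rise of 4.88-fold (2.29 ± 0.25, SE). The sister sensor gene Guca1a had another course. It read 9.64, 8.78, 9.50 and 9.69 at P10, against 10.51, 8.83, 10.18 and 9.59 at P6, so the ages overlapped (adjusted p = 0.514, limma), and it stood at 12.92 at P28 after 10.86 at P12.

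The shut-off of the response showed the same split between called and uncalled partners. Rcvrn, the calcium sensor recoverin that restrains the receptor kinase GRK1, rose 4.38-fold, with arrays of 10.20, 10.16, 10.20 and 10.61 at P10 against 8.76, 8.06, 7.52 and 8.30 at P6. Grk1, that kinase itself, rose 2.77-fold (1.47 ± 0.17, SE). Gnb5, which with RGS9 and its anchor speeds the shut-off of transducin, rose 2.72-fold (1.44 ± 0.09), whereas Rgs9 differed by 0.73 ± 0.10 and the anchor gene Rgs9bp by 0.77 ± 0.26, both under 2-fold. Arrestin (Sag), which ends receptor signalling, was at 12.58 ± 0.07 (SD, n = 4) at P10 and 11.73 ± 0.14 at P6, a difference of 0.85 ± 0.08 (SE). Cngb1, a subunit of the rod channel, differed by 0.48 ± 0.11. Unc119, a trafficking chaperone of transducin, differed by 0.12 ± 0.07.

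**Figure D1:**
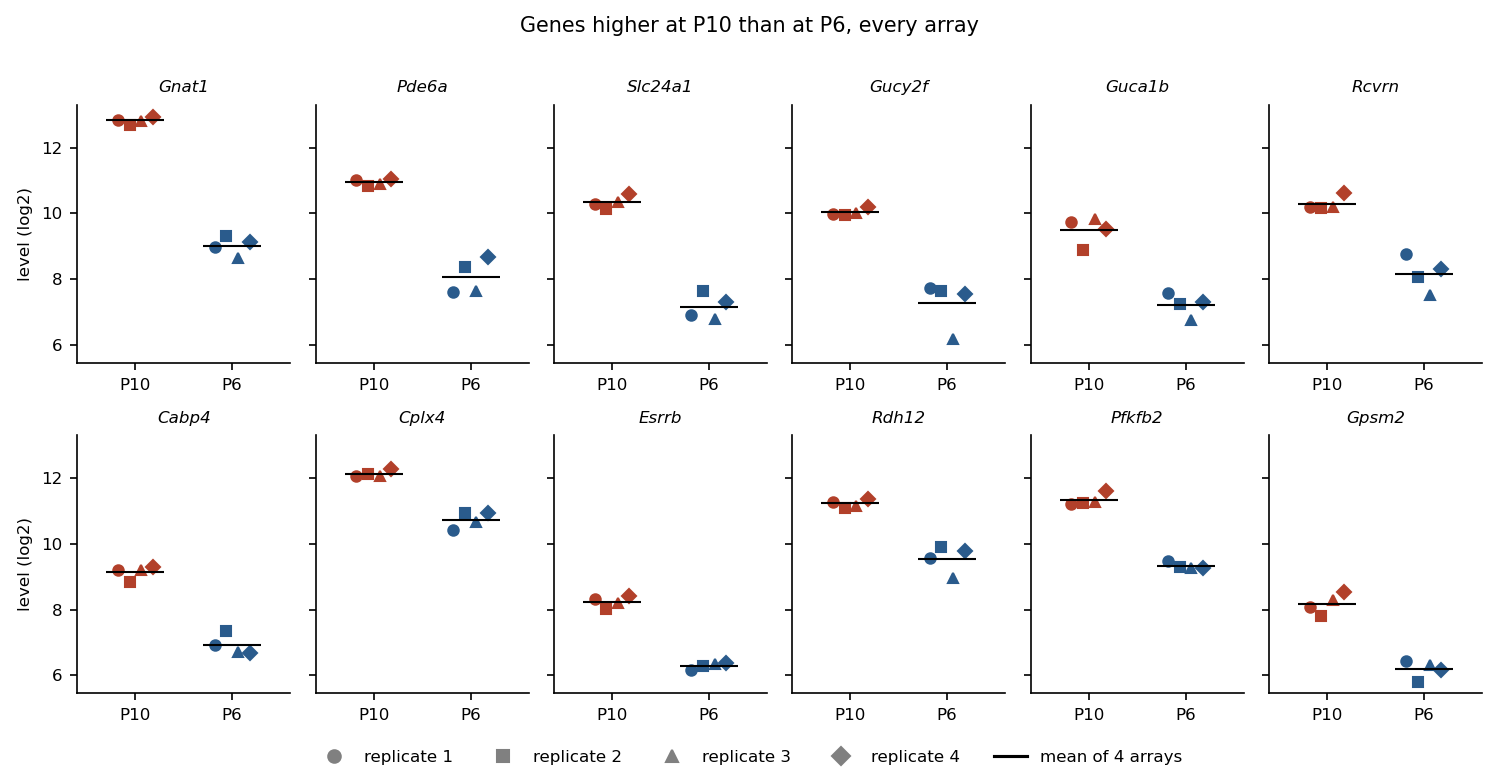
Log2 level of 12 risen genes in each P10 array (left) and each P6 array (right), 1 symbol per array with its shape marking the replicate, and the mean of the 4 arrays as a line. In all 12 panels every P10 array lies above every P6 array, with Gnat1 at 12.69 to 12.94 in P10 arrays and 8.65 to 9.30 in P6 arrays.

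Of 14 genes of the outer segment's discs and matrix measured, 3 rose and 0 fell, with a list median of 0.47. Abca4, the flippase that clears retinal from the discs, rose 2.86-fold (1.52 ± 0.13, SE), with arrays of 10.54, 10.35, 10.59 and 10.48 at P10 against 8.90, 9.30, 8.63 and 9.06 at P6. Impg1, a proteoglycan of the matrix around the segments, rose 2.54-fold (1.34 ± 0.15). The actin bundler gene Fscn2 rose 2.19-fold (1.13 ± 0.15), and without P6 replicate 1, its lowest array at 6.30, the change was 0.93 and not called. The rim protein genes Prph2 (0.74 ± 0.08) and Rom1 (0.29 ± 0.06) differed by less than 2-fold, as did the axoneme gene Rp1 (0.67 ± 0.08), Prom1 (0.49 ± 0.09) and Cdhr1 (0.28 ± 0.12).

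Of 35 genes of the connecting cilium and of intraflagellar transport, 2 rose and 0 fell, with a median of 0.37. Fam161a, a microtubule-binding protein of the cilium, rose 2.46-fold, with an SE of 0.11 on the log2 scale. Bbs2, part of the BBSome that carries membrane proteins through cilia, rose 2.01-fold, and its call was lost without any of 4 single arrays (0.94 to 0.98). The direction was shared by most of the list, since 26 of the 35 differences were positive, and 4 of the 35 rose under either rescaling.

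At the synapse 6 of 29 genes rose and 1 fell, 20.7% and 3.45% of the list, with a median of 0.13. Cabp4, which tunes the calcium channel of the rod terminal, read 9.20, 8.85, 9.21 and 9.28 at P10, against 6.93, 7.34, 6.72 and 6.69 at P6, a rise of 4.64-fold (2.21 ± 0.16, SE; adjusted p = 2e-10, limma). The pore subunit of that channel, Cacna1f, rose 2.61-fold (1.38 ± 0.11) and its beta subunit Cacnb2 2.30-fold (1.20 ± 0.11). Cplx4, a complexin of ribbon synapses, read 12.07, 12.13, 12.05 and 12.26 at P10, against 10.42, 10.92, 10.66 and 10.93 at P6, and rose 2.63-fold. Rims2, an organiser of the release site, rose 2.17-fold. The vesicular glutamate transporter gene Slc17a7 rose 2.08-fold, a call lost without P6 replicate 3 (0.97). Erc1, another release-site protein, fell 2.85-fold (-1.51 ± 0.20), although the probe cluster of this gene with the higher variance was not called (-1.53, adjusted p = 0.249, limma). General vesicle and ribbon genes did not pass the threshold: Syp differed by -0.23 ± 0.11, Bsn by -0.06 ± 0.07 and Ctbp1 by -0.51 ± 0.11.

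In the retinoid cycle 2 of 19 genes rose and 2 fell. Rdh12, the photoreceptor retinol dehydrogenase, read 11.28, 11.10, 11.16 and 11.36 at P10, against 9.57, 9.89, 8.96 and 9.77 at P6, and rose 3.20-fold (1.68 ± 0.19, SE). The other rise was that of Abca4, given above. The falls were those of genes that glia use: Rlbp1, the retinaldehyde-binding protein of Muller glia, fell 2.60-fold (-1.38 ± 0.19), and Aldh1a1, a retinaldehyde dehydrogenase, fell 2.32-fold, with arrays that overlapped, and it was not called without P6 replicate 3 (-0.95) or without P6 replicate 1.

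Among 31 channels, pumps and transporters of rods, 3 rose and 0 fell. The taurine transporter gene Slc6a6 rose 3.07-fold (1.62 ± 0.11, SE). The lactate transporter gene Slc16a1 rose 2.70-fold (1.43 ± 0.18), with arrays of 7.53, 7.29, 7.32 and 7.62 at P10 and 6.42, 5.43, 5.93 and 6.25 at P6. The chloride exporter gene Slc12a5 rose 2.01-fold and was not called without any of 3 single arrays (0.96 to 0.99).

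The transcription factors moved both ways. Of 53 regulators measured 4 rose and 7 fell, 7.55% and 13.2% of the list. Esrrb, a nuclear receptor that rods need to survive in mice, read 8.31, 8.03, 8.19 and 8.42 at P10, against 6.15, 6.30, 6.34 and 6.39 at P6. The groups were well apart, and the rise was 3.84-fold (1.94 ± 0.11, SE; adjusted p = 4.8e-12, limma). The aryl hydrocarbon receptor gene Ahr rose 2.19-fold (1.13 ± 0.19). The clock-linked repressor gene Bhlhe41 (2.05-fold) and Ppargc1b, a coactivator of oestrogen-related receptors (2.02-fold), also rose, and each lost its call without any of 3 single arrays. Mef2c, an activator that works with CRX in photoreceptors, differed by 0.99 ± 0.20 and was called under both rescalings (1.15 and 1.13).

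The fallen regulators were led by Neurod4, a neurogenic helix-loop-helix factor. It read 9.10, 9.16, 9.13 and 9.19 at P10, against 12.02, 11.90, 12.15 and 11.90 at P6. Each age formed a tight group, and the fall was 7.20-fold (-2.85 ± 0.37, SE; adjusted p = 3.57e-06, limma). Nfib and Nfix, nuclear factor I genes that late progenitors and glia use, fell 7.06-fold (-2.82 ± 0.27) and 4.92-fold (-2.30 ± 0.25). Nfib read 6.51, 6.54, 6.24 and 6.19 at P10, against 10.27, 8.34, 9.49 and 8.66 at P6, with replicates 1 and 3 highest. Prdm1, which keeps young photoreceptors from the bipolar fate, fell 2.44-fold (-1.29 ± 0.11), and its arrays were even within each age, at 9.06 to 9.32 at P10 and 10.31 to 10.63 at P6. Sox4 (2.39-fold), Six6 (2.37-fold) and Id2 (2.22-fold) fell as well, and Id2 was not called without P6 replicate 1 (-0.77) or P10 replicate 1 (-0.91). The core factors of the photoreceptor fate stayed under the threshold: Crx differed by -0.04 ± 0.10, Rorb by -0.03 ± 0.12, Neurod1 by -0.44 ± 0.12 and Otx2 by -0.70 ± 0.08.

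Mki67, the Ki-67 antigen of cycling cells, read 4.47, 4.79, 4.71 and 4.15 at P10, against 9.20, 7.83, 9.01 and 6.97 at P6. The P6 arrays were spread wide, with replicates 1 and 3 highest, and all of them lay above the P10 arrays. The fall was 13.2-fold (-3.72 ± 0.32, SE; adjusted p = 4.41e-09, limma). Top2a, the topoisomerase that untangles replicated DNA, read 3.63, 3.97, 3.88 and 3.86 at P10, against 7.87, 5.19, 7.45 and 5.27 at P6, with the same arrays high, and fell 6.10-fold (-2.61 ± 0.41). In sorted bulk samples, fewer cells of a kind and less RNA per cell cannot be told apart.

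Of 48 cell cycle genes 7 fell and 0 rose, 14.6% of the list against 2.92% of all genes, with a median of -0.44. Mybl1, a MYB-family activator, fell 9.63-fold (-3.27 ± 0.28, SE). The spindle midzone gene Prc1 fell 3.49-fold (-1.80 ± 0.41; adjusted p = 0.0567 in a limma fit to the P10 and P6 arrays alone), Ccnd1, the cyclin of the first gap phase, fell 3.16-fold (-1.66 ± 0.20), its kinase Cdk4 fell 2.43-fold (-1.28 ± 0.16) and the ribonucleotide reductase subunit Rrm1 fell 2.13-fold. Without P6 replicate 1, 6 of the 7 were called, Rrm1 missing at -0.99. The mean over the list was 6.24 to 6.32 in P10 arrays and 6.58 to 7.28 in P6 arrays.

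Of 25 progenitor genes 8 fell (32.0%) and 0 rose, with a median of -0.37. Zfp36l1, an mRNA decay factor, fell 5.43-fold (-2.44 ± 0.36, SE), the adhesion gene Cdh2 3.35-fold (-1.74 ± 0.15), Lhx2 3.08-fold (-1.62 ± 0.18) and Pax6 2.78-fold (-1.48 ± 0.29). Fabp7, a fatty acid carrier found in progenitors and glia, read 11.26, 11.68, 11.22 and 11.13 at P10, against 12.61, 12.34, 12.81 and 12.78 at P6, a fall of 2.49-fold that was not called without P6 replicate 3 (adjusted p = 0.053, limma) or P10 replicate 4 (0.0569). It was still at 10.62 at P12 and stood at 5.50 at P28. Sox2 and Vim also fell, and both missed the threshold without P6 replicate 1 (-0.96 and -0.82), which left 6 of the 8. Rax differed by -0.06 ± 0.16 and Hes1 by -0.30 ± 0.10.

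Of 66 genes of axon and dendrite growth measured 19 fell (28.8%) and 1 rose, with a median of -0.61. Rnd3, a GTPase that loosens actin bundles, fell 7.17-fold (-2.84 ± 0.28, SE). Slitrk6, an adhesion molecule of growing neurites, fell 6.08-fold (-2.60 ± 0.36), the cell surface gene Cntn1 5.12-fold (-2.36 ± 0.19) and the axon guidance receptor gene Robo2 4.65-fold (-2.22 ± 0.23). Robo2 read 6.86, 6.55, 6.88 and 6.72 at P10, against 9.57, 8.64, 9.20 and 8.46 at P6. Epha5, an ephrin receptor, fell 4.57-fold (-2.19 ± 0.15), the tubulin gene Tubb2b 4.55-fold (-2.19 ± 0.29), and Efnb2, an ephrin, 3.52-fold (-1.81 ± 0.38). Without P6 replicate 1 the list had 14 falls. The 1 rise was that of Nfasc, the adhesion molecule neurofascin, at 2.06-fold, and it was not called without P6 replicate 3 (0.97) or P10 replicate 2.

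The cytoskeleton list held 5 falls and 1 rise, that of Fscn2, among 39 genes, with a median of -0.37. Cnn3, an actin-binding calponin, fell 7.27-fold (-2.86 ± 0.29, SE), with arrays of 6.56, 6.61, 6.39 and 6.59 at P10 against 10.32, 9.16, 9.39 and 8.73 at P6. The other 4 falls, of Pfn2, Kif5c, Actb and Fscn1, were 2.05-fold to 2.23-fold, and none of these 4 was called without P6 replicate 1 (-0.83 to -0.96). The list had 2 falls under quantile normalization and 3 under cyclic loess.

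In the nuclear envelope and chromatin list 5 of 39 genes fell and 0 rose, with a median of -0.34. Hmgn5 fell 2.61-fold (-1.39 ± 0.32, SE) and Hmgn3 2.05-fold, both nucleosome-binding proteins. Cbx5, the heterochromatin protein HP1 alpha, read 9.74, 9.77, 9.78 and 9.84 at P10, against 11.28, 10.68, 10.96 and 10.72 at P6, and fell 2.19-fold. Of the 5, 3 were called without P6 replicate 1, Hmgn3 (-0.92) and Smarcc1 (-0.89) missing the threshold. Under either rescaling 2 of the 5 were called, Banf1, Hmgn3 and Smarcc1 missing the threshold. Lbr, the lamin B receptor that tethers heterochromatin until mouse rods invert their nuclei, differed by -0.53 ± 0.16.

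In glycolysis 2 of 29 rose and 3 fell, and quantile normalization gave 4 rises. One rise was that of Slc16a1, given above. Pfkfb2, which sets fructose 2,6-bisphosphate, read 11.21, 11.25, 11.28 and 11.60 at P10, against 9.47, 9.28, 9.26 and 9.27 at P6, a rise of 4.04-fold (2.01 ± 0.12, SE). Its relative Pfkfb3 fell 2.49-fold (-1.32 ± 0.24), and the enzyme gene Tpi1 fell 3.41-fold (-1.77 ± 0.28). Txnip, which restrains thioredoxin and glucose uptake, read 6.45, 6.40, 6.18 and 6.78 at P10, against 9.88, 9.22, 9.51 and 9.19 at P6, a fall of 7.99-fold (-3.00 ± 0.18; adjusted p = 8.04e-12, limma). Hexokinase 2 (Hk2) did not differ by the test between these ages (0.15 ± 0.22), and it stood at 9.59 at P28.

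Of 34 oxidative phosphorylation genes 0 were called, and 30 of the 34 differences were negative, with a median of -0.30 that became -0.15 and -0.16 under the rescalings. Among genes that maintain the mitochondrial genome, Polg2, the accessory subunit of its polymerase, rose 4.74-fold (2.25 ± 0.17, SE), with arrays of 10.26, 10.00, 10.30 and 10.30 at P10 against 7.54, 7.90, 8.14 and 8.30 at P6. The other rise in that list of 25 was that of Ppargc1b. The brain creatine kinase gene Ckb, held in the same list, fell 2.59-fold (-1.37 ± 0.29).

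In lipid synthesis 1 of 46 genes rose and 5 fell. Cds1, which makes the precursor of phosphoinositides, rose 5.54-fold (2.47 ± 0.16, SE), with arrays of 8.75, 8.45, 8.71 and 8.77 at P10 against 6.12, 6.07, 5.84 and 6.76 at P6. Scd2, a fatty acid desaturase, fell 3.18-fold (-1.67 ± 0.27). The elongase genes Elovl5 and Elovl6 and the desaturase genes Fads1 and Fads2 fell 2.12-fold to 2.39-fold. None of these 4 was called without P6 replicate 1, with changes of -0.95 to -0.97 that were just under 2-fold (adjusted p of 6.98e-06 for Fads1 and 0.0552 for Elovl6, limma). Under either rescaling the list had 3 falls. In the cholesterol list Apoe, Srebf2 and Abca1 fell, 3 of 22, with or without that array.

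Of 30 redox genes 6 fell and 0 rose, a share of 20.0%. Gsta4, a glutathione transferase, fell 4.94-fold (-2.30 ± 0.27, SE), and the peroxiredoxin genes Prdx4 and Prdx2 fell 2.68-fold and 2.55-fold. The metallothionein gene Mt2 read 5.04, 5.40, 4.98 and 6.07 at P10, against 9.83, 5.97, 7.64 and 6.79 at P6. Its arrays overlapped, and its call was lost in a limma fit to the P10 and P6 arrays alone (adjusted p = 0.0708). Txnip was among the 6, and Selenop, which carries selenium, was not called without P6 replicate 1. In chaperones 3 of 35 rose: Aipl1, the chaperone that the phosphodiesterase needs to fold, rose 2.97-fold (1.57 ± 0.13), Fos, an immediate early gene, rose 2.33-fold, and Hspa1a, a heat shock gene, rose 3.73-fold. Hspa1a has the near-identical copy Hspa1b, so which of them the probes measured is uncertain.

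In signalling lists Jag1, a Notch ligand, rose 2.36-fold (1.24 ± 0.16, SE). The Wnt pathway genes Fzd3 (5.44-fold), Apcdd1 (4.86-fold) and Nkd1 (2.21-fold) fell, as did Gli3 of the Hedgehog pathway (2.17-fold). Tcf4 (2.52-fold) fell too, and it encodes a helix-loop-helix factor, not the Wnt effector once given the same name. The counts were 1 rise and 5 falls among 48 genes, and 3 falls without P6 replicate 1, where Nkd1 and Gli3 were not called, or under quantile normalization. Among 48 growth factor and receptor genes 5 fell and 0 rose: Ece1, which activates endothelin, fell 7.04-fold (-2.81 ± 0.15), Tgfb2 4.72-fold (-2.24 ± 0.24), the receptor genes Kdr and Cntfr 4.24-fold and 2.73-fold, and Vegfa 2.56-fold (-1.36 ± 0.13). Ribosome biogenesis had 1 rise (Rrp1b, 2.42-fold) and 1 fall (Mycl, 3.10-fold) in 24 genes. Splicing had 1 rise in 35 (Tdrd7, 2.11-fold, not called without P6 replicate 3) and 2 under either rescaling, the clock 1 in 15 (Bhlhe41) and cell death 1 fall in 24 (Dapk1, 2.45-fold). The falls in ribosome biogenesis and in cell death were 4.17% of each list, near the 2.92% of all genes. A single call says little about a list.

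**Figure D2:**
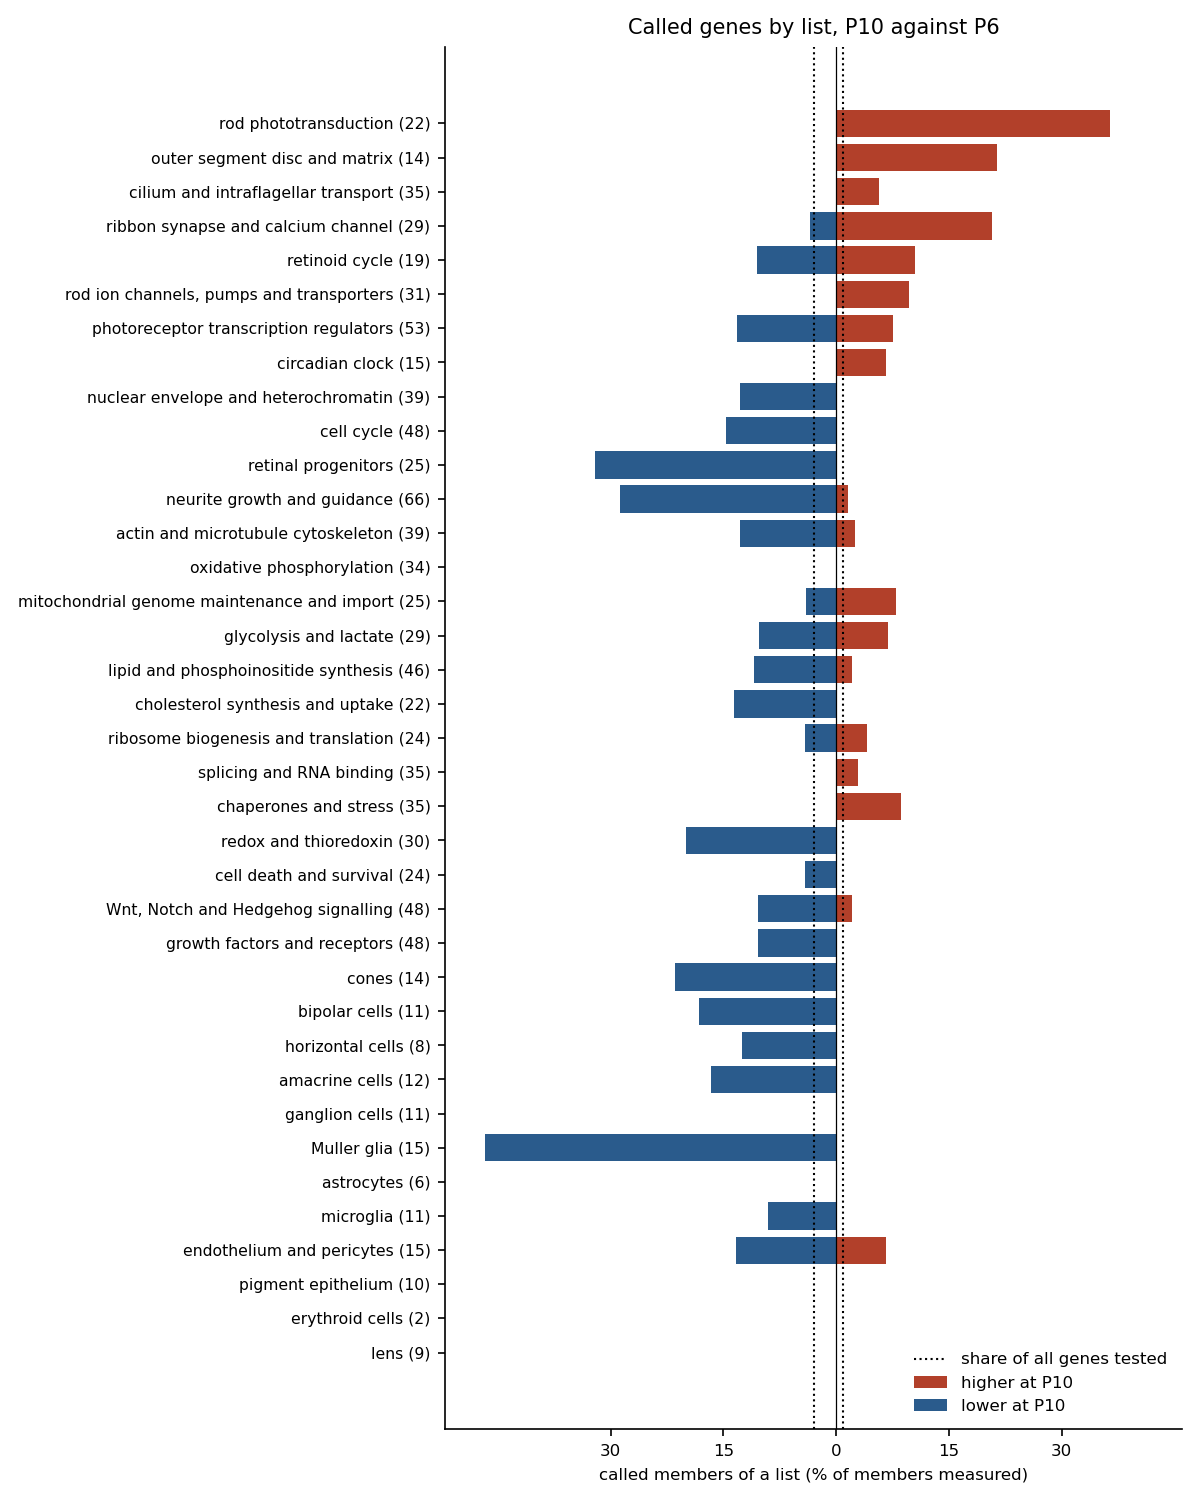
Share of each gene list that was called higher (to the right) or lower (to the left) at P10, in % of the members measured, whose number is in brackets. Dotted lines mark the shares of all 14860 genes, 0.882% higher and 2.92% lower. Rod phototransduction has the longest bar to the right (36.4%) and Muller glia the longest to the left (46.7%).

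Several large rises lay outside these lists. Glt28d2, named for a glycosyltransferase domain, read 8.68, 8.91, 9.06 and 9.08 at P10, against 5.47, 5.91, 4.70 and 6.53 at P6, and rose 9.70-fold (3.28 ± 0.33, SE). Pdzph1 rose 7.54-fold (2.91 ± 0.21) and Cdr2, an antigen of paraneoplastic cerebellar degeneration, 7.21-fold (2.85 ± 0.21). The monocarboxylate transporter relative Slc16a6 rose 4.74-fold, Grtp1, a TBC domain protein, 4.72-fold, the mitochondrial carrier gene Slc25a35 4.47-fold and Gpsm2, a regulator of G protein alpha subunits, 3.98-fold. Gpsm2 was at 8.18 at P10 and at 10.52 at P28. The recombination gene Rad54b rose 3.78-fold, the matrix protein gene Vtn (vitronectin) 3.55-fold, Ppp1r42 3.50-fold and Rabgef1, an exchange factor for RAB5, 3.45-fold. Over the 25 largest rises with arrays that did not overlap, the highest adjusted p was 0.00719 (limma).

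Large falls outside the lists included Cltb, the clathrin light chain B, at 5.88, 5.41, 5.77 and 5.96 in P10 arrays against 8.84, 8.99, 9.03 and 8.51 in P6 arrays. Its P6 arrays were even, and it fell 8.49-fold (-3.09 ± 0.20, SE). Ccdc136 fell 6.83-fold (-2.77 ± 0.15), Nt5dc2 6.79-fold (-2.76 ± 0.17), Jpt1, a microtubule-associated protein, 6.41-fold (-2.68 ± 0.27) and the cytokine gene Tnfsf9 5.75-fold (-2.52 ± 0.27). The nicotinic receptor subunit gene Chrnb4 fell 5.41-fold, the secreted growth factor gene Ptn 5.55-fold and the cyclic GMP-dependent kinase gene Prkg1 5.17-fold. Over the 25 largest falls the highest adjusted p was 0.000227 (limma).

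**Figure D3:**
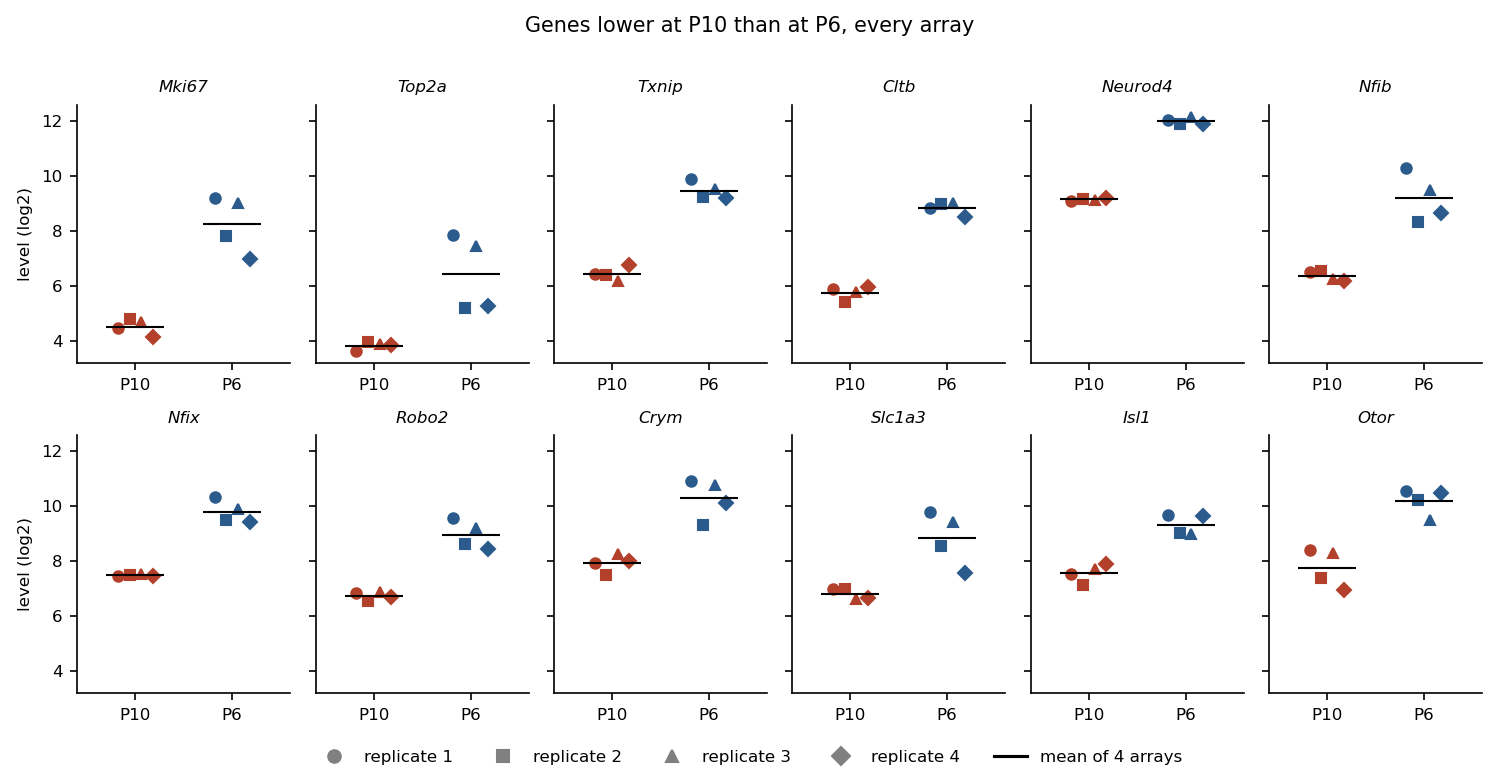
Log2 level of 12 fallen genes in each P10 array (left) and each P6 array (right), 1 symbol per array with its shape marking the replicate, and the mean of the 4 arrays as a line. The P6 arrays are close together for Neurod4 (11.90 to 12.15) and spread for Mki67 (6.97 to 9.20), where replicates 1 and 3 are the highest.

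Some marker genes of other cell types fell between the same ages, and most members of these lists were not called. Of 15 Muller glia genes 7 fell and 0 rose, 46.7% of the list, with a median of -0.90. Crym, which binds thyroid hormone, read 7.93, 7.52, 8.25 and 8.01 at P10, against 10.93, 9.33, 10.78 and 10.10 at P6, a fall of 5.12-fold (-2.36 ± 0.26, SE). Slc1a3, the glial glutamate transporter, fell 4.02-fold (-2.01 ± 0.28), Apoe 3.39-fold (-1.76 ± 0.18) and Dbi 2.94-fold (-1.56 ± 0.22). The defining enzyme gene Glul differed by -0.90 ± 0.16 and Sox9 by -0.50 ± 0.10. Other members moved little: Clu differed by -0.26 ± 0.18, Car2 by -0.00 ± 0.15, Aqp4 by 0.01 ± 0.09 and Abca8a by 0.18 ± 0.17. Of the 15 differences 13 were negative and 2 positive. The list's mean was 7.36 to 7.65 in P10 arrays, 8.16 to 8.85 in P6 arrays and 7.93 to 8.10 in P4 arrays, with P6 replicates 1 and 3 highest. Without P6 replicate 1, 5 of the 7 falls were called, Vim and Spc25 missing the threshold. The 7 are not particular to this list, since Vim is also counted among the progenitor falls, Rlbp1 among the retinoid falls and Apoe among the cholesterol falls.

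Of 14 cone genes 3 fell and 0 rose: Opn1sw, the short-wave opsin, fell 2.43-fold (-1.28 ± 0.38, SE), Gngt2, the gamma subunit of cone transducin, 2.37-fold (-1.25 ± 0.23) and Cngb3, part of the cone channel, 2.27-fold (-1.18 ± 0.16). Opn1sw was not called without P6 replicate 1 (adjusted p = 0.0858, limma) or P10 replicate 2 (0.0605). The cone list's mean was 7.24 to 7.54 at P10 and 7.73 to 8.29 at P6. Of its 14 differences 12 were negative and 2 positive, the highest that of Opn1mw (0.92 ± 0.36, SE, not called). Amacrine cells had 2 falls in 12 (Pax6 and Meis2, the second not called under either rescaling or without P6 replicate 1) and horizontal cells 1 in 8 (Prox1, 5.17-fold). Bipolar cells had 2 in 11 (Isl1, 3.36-fold, and Grik1, 2.59-fold), of which Grik1 rested on P6 replicate 1, at 8.54 where the other P6 arrays were at 6.63 to 6.72. Of the 11 bipolar differences 7 were negative and 4 positive, the highest that of Prkca (0.49 ± 0.12, SE). Between P12 and P4, 4 of the 11 bipolar genes rose and 0 fell. Endothelium and pericytes had 2 falls in 15 (Rgs5 and Kdr) and the 1 rise of Vtn. Rgs5 read 6.06, 6.57, 6.43 and 5.81 at P10, against 9.57, 6.85, 10.35 and 6.57 at P6, and its call needed both P6 replicate 1 and P6 replicate 3. Microglia had 1 fall in 11, that of Tyrobp, which was not called without P6 replicate 1 (-0.78) or P6 replicate 3 (-0.99). Ganglion cells, astrocytes, pigment epithelium, lens and erythroid cells had 0 called genes among 11, 6, 10, 9 and 2. RMA values have no 0, so no marker can be called absent. The part of these cell types in the other falls was not tested. Whether the sorted rods themselves made RNA of these markers, those of cones included, was not tested either.

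**Figure D4:**
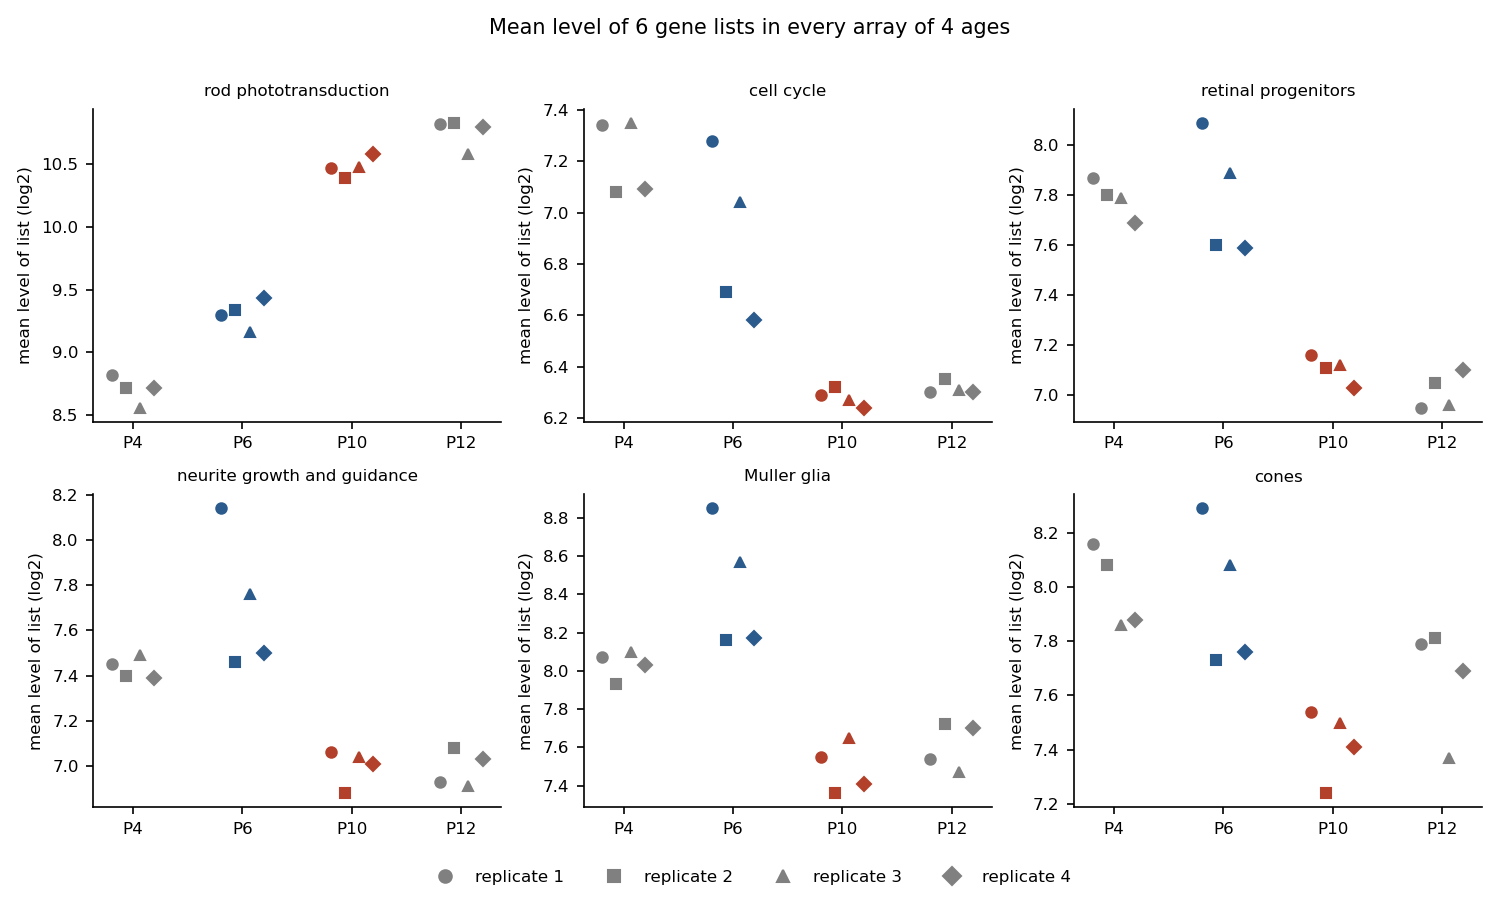
Mean log2 level of 6 gene lists in each array of P4, P6, P10 and P12, 1 symbol per array with its shape marking the replicate; the vertical axes differ between panels. The phototransduction mean is 10.39 to 10.58 in P10 arrays and 9.16 to 9.43 in P6 arrays, while in the other 5 lists P6 replicate 1 lies highest among the P6 arrays.

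The same interval can be read in arrays that the comparison did not use, since P12 and P4 bracket it. Between P12 and P4, 365 genes rose (2.46%) and 422 fell (2.84%). All 131 genes that rose between P6 and P10 also rose there, which is 35.9% of the 365, with a median change of 2.09. Of the 434 genes that fell, 238 also fell there (54.8% of the 434 and 56.4% of the 422), 192 were not called and 4 were called higher. The sign was the same in 410 of the 434, and the 192 had a median difference of -0.66 there, so many of them were lower without passing the threshold. Both comparisons lie on one course of development and share the model's estimate of spread. Gnat1 was at 13.16 at P12 and 7.90 at P4, a difference of 5.26, and Mki67 was at 4.40 at P12 and 9.52 at P4, a difference of -5.13.

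The median level of the 192 falls without a call in the outer pair was 6.65 at P10, 8.01 at P6 and 7.20 at P4. A P4 level below that of P6 follows from how these genes were picked out, so it is a description only. In the 238 falls shared with the outer pair the medians were 6.95 at P10, 8.68 at P6 and 8.72 at P4. P6 replicate 1 held the highest P6 value in 146 of the 192 and in 150 of the 238. Without that array 101 of the 192 and 199 of the 238 were still called. Among the fallen lists, all 7 cell cycle genes fell in the outer pair too, 10 of the 19 neurite genes did, 4 of the 7 Muller glia genes, and 1 of the 5 lipid genes.

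Among them Tgfb2 was at 6.25 ± 0.13 (SD, n = 4) at P10, 8.49 ± 0.79 at P6 and 6.68 at P4. Prkg1 was at 4.80 at P10, 7.17 at P6 and 5.48 at P4, and the horizontal cell gene Prox1 at 6.72, 9.09 and 7.24. The 4 genes called higher at P12 than at P4 were Isl1, a homeobox gene of bipolar and ganglion cells, Otor, a secreted protein first described in the inner ear, Rgs5, a pericyte gene, and Car10, a carbonic anhydrase relative. Isl1 read 7.55, 7.15, 7.73 and 7.89 at P10, against 9.69, 9.01, 9.00 and 9.63 at P6, and its mean was 6.07 at P4. All 4 P6 arrays were high. Otor read 8.42, 7.38, 8.29 and 6.94 at P10, against 10.54, 10.24, 9.50 and 10.49 at P6, with a mean of 6.76 at P4. Car10 was at 6.82 at P10, 8.30 at P6 and 6.00 at P4, named here after its values were seen because it completes the 4. For Isl1, Otor and Car10 the P6 arrays lay closer together than those of Rgs5.

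**Figure D5:**
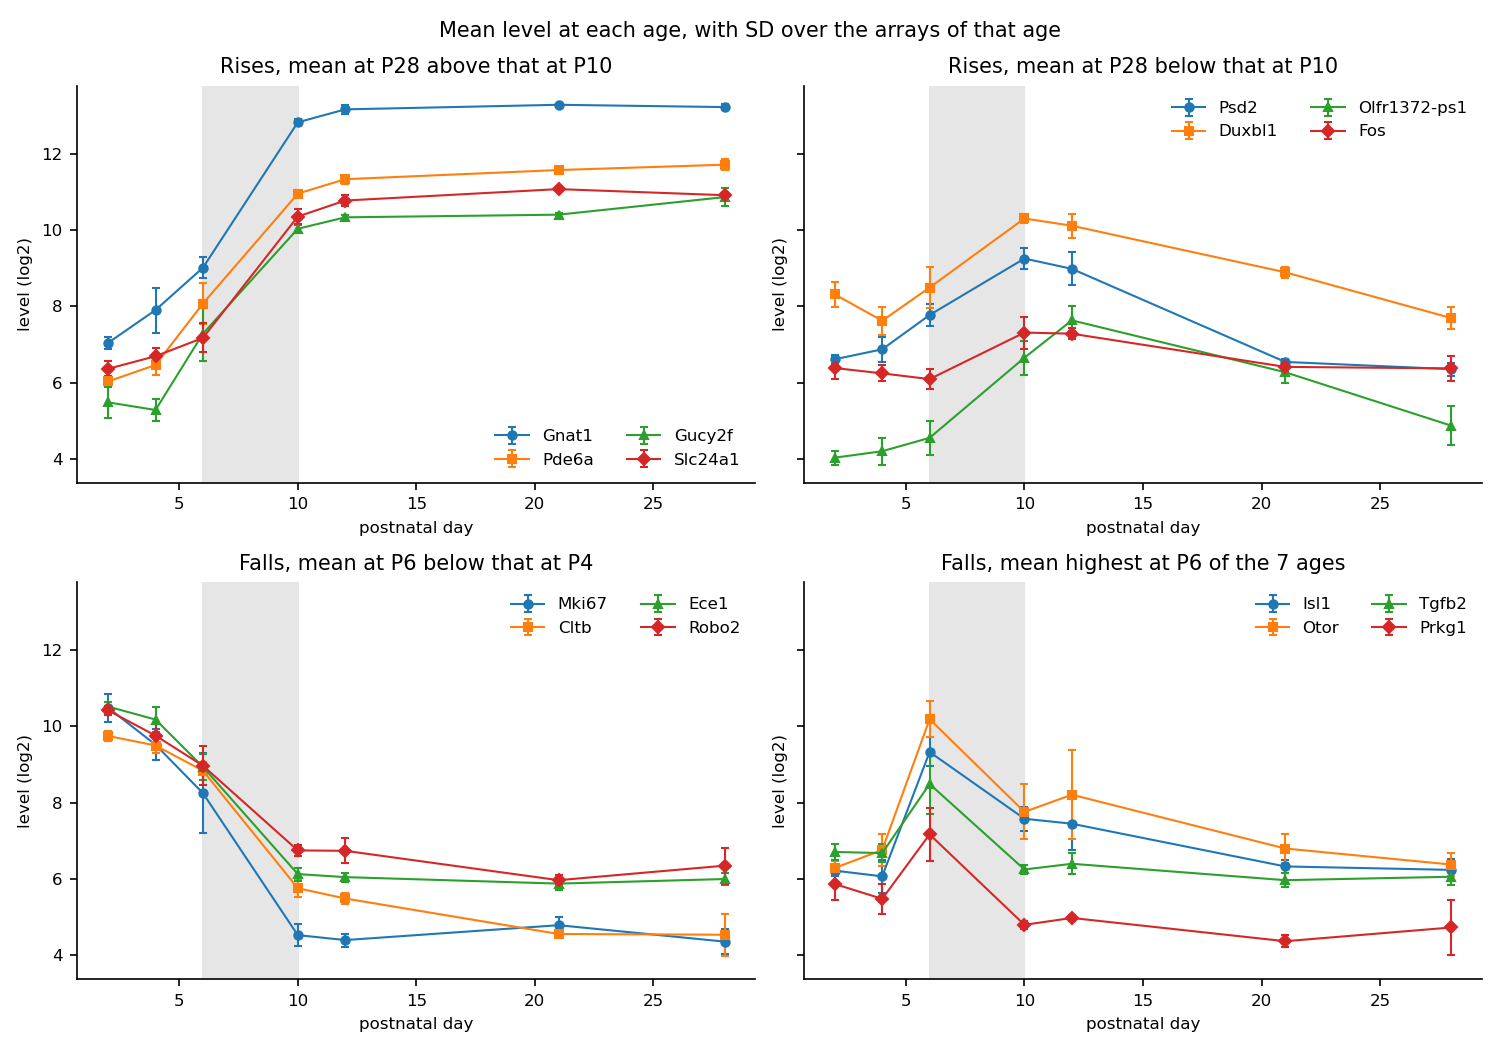
Mean log2 level at each of the 7 ages with the SD over the arrays of that age (3 at P2, 5 at P28 and 4 at the others) for 16 genes, with the stretch between P6 and P10 shaded. Gnat1 is at 12.82 at P10 and 9.01 at P6 and stays near that level to P28 (13.22), Psd2 falls back to 6.35 at P28, Mki67 is already lower at P6 (8.25) than at P4 (9.52), and Isl1 has its highest mean at P6 (9.33).

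The change between P6 and P10 was set against an earlier change, that between P2 and P4, which leaves out the step from P4 to P6. The test, in the same model, was of the P10 minus P6 change less the P4 minus P2 change. The P10 minus P6 change was more positive in 120 genes (0.808%) and more negative in 229 (1.54%). Quantile normalization once more turned that split into 153 and 187, and without P6 replicate 1 it was 126 and 165. Both steps are totals over stretches of unequal length. For Gnat1 the step between P6 and P10 was 3.81 and that between P2 and P4 was 0.85, a difference of 2.96 (adjusted p = 6.2e-08, limma). Cdr2 had the largest positive difference among the risen genes (3.38, with an earlier step of -0.53), followed by Glt28d2 (3.15), Pdzph1 (3.08), Gucy2f (2.95) and Slc24a1 (2.86). On the falling side the differences were -2.79 for Txnip, -2.84 for Cltb, -2.90 for Otor and -2.98 for Slc27a2, a fatty acid transporter. Mmgt2 (-3.47) and Mt2 (-3.29) were larger still, but their P10 or P6 arrays were uneven: Mmgt2 read 4.81, 6.43, 7.98 and 7.61 at P10, and its fall was not called without any of 4 single arrays.

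Against the later stretch, from P12 to P28, the P10 minus P6 change was more positive in 290 genes (1.95%) and more negative in 271 (1.82%). Gnat1 moved by 0.06 in that stretch and Mki67 by -0.04, which gave differences of 3.75 and -3.68. Ece1 (-0.05) and Nt5dc2 (-0.05) likewise held their P12 level to P28, and Txnip moved by -0.17. Some risen genes were lower again by P28. Olfr1372-ps1, annotated as an olfactory receptor pseudogene, rose 4.30-fold between P6 and P10 and moved by -2.76 between P12 and P28, a difference of 4.86 (adjusted p = 1.48e-09, limma). Psd2, an exchange factor for ARF6, rose 2.79-fold with arrays of 9.49, 9.06, 8.98 and 9.47 at P10 against 7.32, 7.92, 7.88 and 7.95 at P6, and it then moved by -2.63 to 6.35 at P28. Duxbl1, a double homeobox gene, rose 3.50-fold and moved by -2.43, but it belongs to a cluster of near-identical copies, so its value is uncertain. Fabp7 fell further later, by -5.12 between P12 and P28, so its difference was positive (3.81) although it fell in both stretches.

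From P28 against P2, which share no array with the comparison, 368 genes rose (2.48%) and 1252 fell (8.43%). Of the 131 genes that rose between P6 and P10, 114 were also higher at P28 than at P2 (87.0% of the 131 and 31.0% of the 368). Of the 434 that fell, 343 were lower at P28 than at P2 (79.0% of the 434 and 27.4% of the 1252). None of the 131 or of the 434 was called in the opposite direction. The share of the P2 to P28 log2 difference that lay between P6 and P10 was 84.3% for Rcvrn, 69.9% for Slc24a1, 56.9% for Guca1b, 51.2% for Gucy2f, 50.7% for Pde6a and 42.3% for Grk1.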

How the data were processed

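The values were deposited as log2 RMA levels per gene-level probe cluster of the Affymetrix Mouse Exon 1.0 ST array, made by the authors with Affymetrix Expression Console 1.3.1.187 on build mm8, per the submitters' processing notes. RMA subtracts background, quantile normalizes and summarises probes, which compresses differences of dim genes. RNA was amplified before labelling, per the labels' protocols. Of 16755 clusters, 14996 carried 1 symbol, 1019 several and 740 none, through the platform annotation, and 14941 matched RefSeq by Entrez number. The cluster with the highest mean stood for each of 135 genes with several, leaving 14860 genes. limma 3.58.1 in R 4.3.3 was fitted with 1 mean per age to all 28 arrays (21 residual degrees of freedom), and the script was tested on simulated data. Adjusted p-values are Benjamini-Hochberg over all genes. No 2 arrays held identical values. Replicate numbers did not pair arrays: same-numbered P10 and P6 arrays correlated at -0.0687 to 0.0807 in their deviations. The members and the 37 gene lists were chosen with earlier results of these data known. Named genes were the 25 largest rises and falls with arrays that did not overlap (uncharacterised models left out), up to 8 called members of a list in each direction, reference members of the lists, the 6 largest in each direction of each contrast of changes, and Nrl. Nr2e3 and Cnga1 were not analysed here.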

Additional observations from a re-analysis of the deposited data

Results flagged for a closer look

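In each group of 4 arrays the distance of the highest or lowest array from its neighbour was set against the whole range (Dixon's ratio, at its 95% critical value). Of 438 such groups 17 passed it, which is not more than the roughly 5% of groups that chance alone passes. The groups come from the same 8 arrays and are not independent, so the count is a description. The arrays below are therefore given as values only. P6 replicate 1 was the array apart in 7 of the 17. It was the highest P6 array for Grik1 (0.952), the mean of the glycolysis list (0.934), Pfkfb2 (0.931) and Pfn2 (0.838), and the lowest for Psd2 (0.898), Fscn2 (0.852) and Rom1 (0.841). Pfkfb2 read 9.47 there, against 9.26 to 9.28 in the other P6 arrays and at least 11.21 in P10 arrays. The other P6 arrays apart were replicate 3, lowest for Gnb1 (0.918) and for Gucy2f (0.877), and replicate 4, highest for Pde6g (0.872) and lowest for Dkk3 (0.836). At P10, replicate 2 was lowest for Cntn1 (0.926), Pax6 (0.903) and Polg2 (0.861). P10 replicate 4 was highest for Rcvrn (0.921), and replicate 3 was highest for Grik1 (0.832) and lowest for the mean of the lipid list (0.849).

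The step between P6 and P10 differed from the P2 to P4 step in 349 genes and from the P12 to P28 step in 561 genes, by limma's test of the difference itself.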

How the results depend on the processing

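The 565 genes called between P10 and P6 became 515 after quantile normalization once more (37.1% of them rises, against 23.2% as deposited), 536 after cyclic loess (32.5%), 513 among genes with a mean above 6, 518 with only the P10 and P6 arrays in the fit, 566 with the probe cluster of highest variance, and 565 with a variance trend. With the replicate number as a block they became 538, and 442 to 668 when 1 array was left out. Under the block the P12 against P4 count was 784 (787 without it), the count against the P4 minus P2 step 325 (349) and that against the P28 minus P12 step 517 (561). Leaving out 1 array gave 746 to 841, 291 to 430 and 487 to 639 for these. Under quantile normalization rises were 45.0% of the calls against the P4 minus P2 step, and 34.4% as deposited. All 4 counts stayed within 1.5 times their value under every alternative run.

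Of 182 named genes 146 were called. Without P6 replicate 1, 27 lost the call and 1 gained it, without P6 replicate 3, 14 lost it, and 7 lost it under the block. With P12 and P4 in place of P10 and P6, 24 lost it and 7 had the opposite sign: Apcdd1 (0.70), Grik1 (0.99), Guca1a (1.47), Isl1 (1.38), Otor (1.45), Rgs5 (2.44) and Tyrobp (0.19). The list medians near 0 changed sign or reached 0 with the scaling, such as chaperones (0.10 and 0.05, against -0.03) and mitochondrial genome maintenance (0.01 and 0.00, against -0.12). The list counts without P6 replicate 1 and under both scalings, the classes of falls without it, and the split into rises and falls under each alternative were added after seeing the data. The causes were not tested.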
